A study of Saccharomyces cerevisiae with 7 samples.

Results

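The genes that encode proteins of the small ribosomal subunit (RPS genes) were followed in 7 yeast genotypes, with 1 RNA-seq library each. The members were all genes whose symbol is RPS, a number and, where there is one, the copy letter A or B. The rule took 56 of the 5110 genes counted. Of these, 48 form 24 pairs of an A and a B copy, and 8, such as RPS2, RPS3 and RPS13, have 1 copy. The study asked what the nuclear FKBP-type prolyl isomerases and histone chaperones Fpr3 and Fpr4 do in transcription. The strains were Δfpr3Δfpr4Δtrf5, Δfpr3Δtrf5, Δfpr3Δfpr4, Δfpr4, Δfpr3, Δsir2 and the wild type BY4741 (WT), all grown to mid-log phase in rich medium. The last 5 formed a survey, and the Δsir2 strain, which lacks a histone deacetylase of silent chromatin, was its control. The 2 Δtrf5 strains were haploids from a cross of the screen that carry a functional FPR4 or lack it. They lack Trf5, the poly(A) polymerase of the nuclear surveillance complex TRAMP5. Loss of Trf5 and descent from that cross cannot be told apart in any contrast with the survey strains. In that cross FPR4 came from a URA3 plasmid that was selected for or against, and the paper reports slow growth of Δfpr3Δfpr4Δtrf5. Between the 2 Δtrf5 strains, loss of Fpr4 cannot be told apart from the plasmid selection or from slow growth.

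Each small subunit holds 1 copy of each of these proteins around the 18S rRNA, where they shape the decoding centre, the mRNA channel and the platform. Ribosomal protein mRNAs are among the most abundant in growing yeast. Their transcription is driven mainly by Rap1, Fhl1, Ifh1 and Sfp1 and follows nutrient signalling through TORC1. An ancient whole-genome duplication left most of them as A and B copies with near-identical products, and several of them also regulate their own pre-mRNA or mRNA.

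Total counts of reads in genes were 627679 in Δfpr3Δfpr4Δtrf5, 819135 in Δfpr3Δtrf5 and between 1009336 and 1242534 in the 5 survey libraries. Every member had at least 48 reads in every library. FPR3, FPR4, SIR2 and TRF5 had 0 reads in the strains that lack them, except for 2 reads of TRF5 in Δfpr3Δfpr4Δtrf5. The a-mating-type markers, which fit the MATa strains, summed to 6.22 RPKM (reads of a gene scaled to its length in kilobases and to the library total) in Δsir2 and to between 2430 and 6960 RPKM in the other libraries. The part of that change of cell identity in any Δsir2 result was not tested. With 1 library per genotype there is no replicate check. Each test on reads compares 2 libraries and not 2 conditions, and fewer cells and less RNA per cell cannot be told apart.

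Members lie on 14 chromosomes. An intron interrupts 36 of them, and the other 20 have none. Coding sequences of the A and B copies were 84.3% (RPS27) to 99.2% (RPS6) identical, which decides how well reads can be assigned to a copy. Of all 100-base windows, 67.5% and 66.1% were unique to their copy in RPS6A and RPS6B, and at least 90.3% in RPS4 and RPS24. In 20 of the 24 pairs every window was unique. Counts of the RPS6 copies are therefore uncertain.

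The copies of RPS28 are shown because RPS28B had the widest gap in level between the Δtrf5 and the survey strains. RPS28 encodes a protein near the mRNA exit site that in yeast also lowers its own RPS28B mRNA through the decay factor Edc3. Both coding sequences are 204 bases long without an intron. RPS28A lies on the minus strand at chrXV:648804-649007 and RPS28B on the plus strand at chrXII:673131-673334 (sacCer3, sequences from RefSeq). Capitals mark the 24 bases at which the copies differ.
RPS28A: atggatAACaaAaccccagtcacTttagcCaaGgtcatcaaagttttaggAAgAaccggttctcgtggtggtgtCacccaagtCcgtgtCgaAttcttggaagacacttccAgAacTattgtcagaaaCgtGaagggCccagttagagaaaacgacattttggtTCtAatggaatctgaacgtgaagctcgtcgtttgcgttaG
RPS28B: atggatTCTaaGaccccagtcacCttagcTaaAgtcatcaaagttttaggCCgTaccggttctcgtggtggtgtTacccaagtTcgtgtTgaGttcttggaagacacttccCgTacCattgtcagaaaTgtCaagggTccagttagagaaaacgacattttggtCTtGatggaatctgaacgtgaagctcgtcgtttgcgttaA
The products differ in 1 of 67 residues.

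RPS transcripts were abundant in every strain. They took 7.21% of counted reads in Δfpr3Δfpr4Δtrf5, 7.01% in Δfpr3Δtrf5, 6.01% in Δfpr3Δfpr4, 5.83% in Δfpr4, 5.86% in Δfpr3 and 6.96% in Δsir2, against 5.27% in WT (95% Wilson interval 5.23 to 5.31). The share was thus lowest in WT, and 26 of the 56 members had their lowest RPKM there, while none had its highest there. The highest RPKM was in Δfpr3Δfpr4Δtrf5 for 26 members, in Δsir2 for 19 and in Δfpr3Δtrf5 for 11. The lowest and highest libraries were not counted over all genes, so these counts have no reference. RPKM summed over all genes also differed, with 997861 in Δfpr3Δfpr4Δtrf5 and 811278 in WT. Genes of the large subunit and stalk (RPL and RPP) took 11% of reads in Δfpr3Δfpr4Δtrf5 and 9.77% in Δfpr3Δtrf5, against 7.41% in WT.

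**Figure D1:**
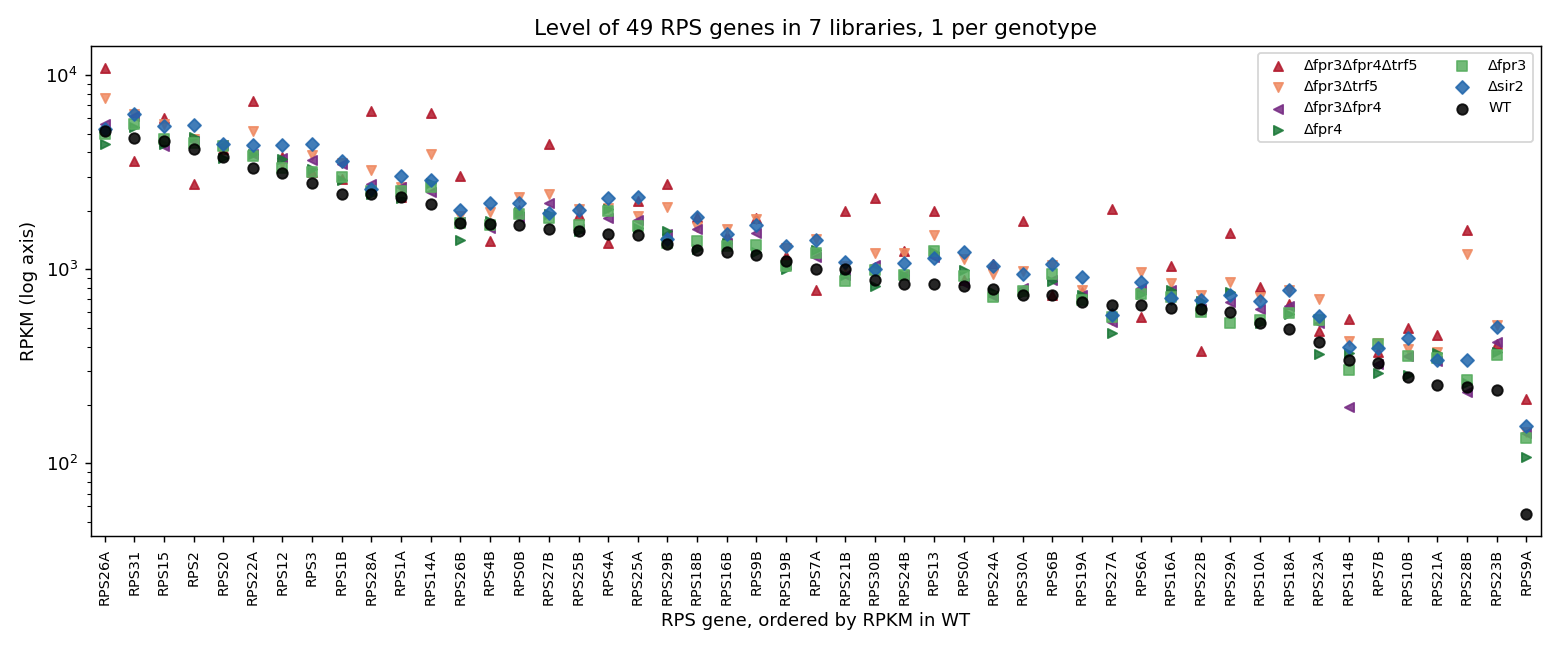
RPKM (log axis) of 49 of the 56 RPS genes, ordered by their level in WT, with 1 point per library. RPS9A has its lowest level in WT, at 55.1 RPKM, and RPS28B stands at 1203 and 1585 RPKM in the 2 Δtrf5 libraries, above its survey values.

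Levels per length spanned about 2 orders of magnitude within WT. Among the highest were RPS26A with 5187 RPKM, RPS31 with 4726, RPS15 with 4606 and RPS2 with 4179. RPS26 lines the mRNA exit channel, RPS31 is made as a fusion to ubiquitin, and RPS15 and RPS2 lie in the head and body around the mRNA path. The lowest were RPS9A with 55.1 RPKM, RPS23B with 238, RPS28B with 247, RPS21A with 254 and RPS10B with 279. All 5 of the lowest are 1 copy of a pair, and 21 members were among the 100 highest of all genes in WT. RPKM divides by the whole gene, introns included, so that genes with an intron read low. Over exons alone RPS27B (5206 RPKM of exon) led in WT and RPS9A (102) was still last.

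Genes with 1 copy had a median of 3980 RPKM in WT and members of pairs 863 RPKM. Of the 8 genes with 1 copy 7 have no intron, while 35 of the 48 members of pairs have one, and over exons alone the medians were 3980 and 1540 RPKM of exon. The summed RPKM of both copies ranged over the 24 pairs from 659 to 6912 in WT with a median of 1820, below the median of the genes with 1 copy. That order held in all 7 libraries per whole gene, but over exons in the 5 survey libraries only. Over exons the medians of summed pairs and of genes with 1 copy were 3340 and 3980 RPKM of exon in WT, 4460 and 4430 in Δfpr3Δtrf5, and 4570 and 3800 in Δfpr3Δfpr4Δtrf5. Of the genes with 1 copy, RPS15 ranged from 4302 to 5990 RPKM over the 7 libraries, RPS20 from 3765 to 4420 and RPS12 from 3122 to 4397. Per whole gene the medians were closest in Δfpr3Δfpr4Δtrf5, with 2740 RPKM for summed pairs and 3690 for genes with 1 copy.

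Between libraries, the ratio of the highest to the lowest RPKM of a member ranged from 1.17 to 6.8 with a median of 1.65, and 18 members varied more than 2-fold. The plot of 6 members shows those with the most distinct patterns.

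**Figure D2:**
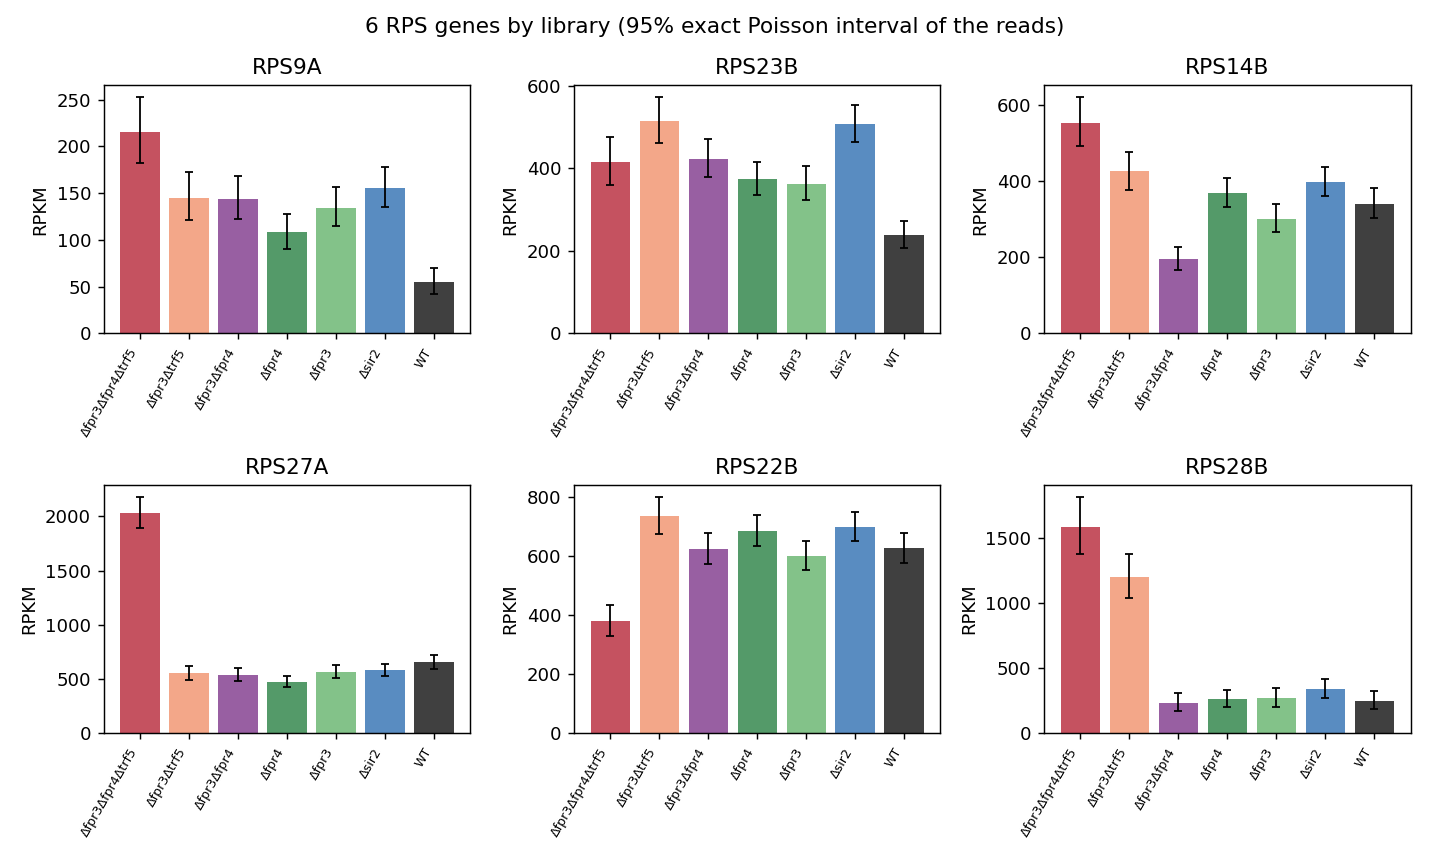
RPKM of 6 RPS genes in each of the 7 libraries, with bars from 0 and 95% exact Poisson intervals of the reads, which cover counting error only. RPS9A and RPS23B are lowest in WT, RPS14B is lowest in Δfpr3Δfpr4, RPS27A is highest and RPS22B lowest in Δfpr3Δfpr4Δtrf5, and RPS28B is high in both Δtrf5 libraries.

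For each comparison of 2 libraries a gene was called when its reads differed by a chi-square test against all other reads (Benjamini-Hochberg adjusted p under 0.05 over all genes tested), its RPKM + 1 differed by 1.3-fold or more, and the 2 libraries together held more than 5 reads. Of the 56 members 14 were called in none of the 6 comparisons, among them RPS15 and RPS20. In the report a log2 fold change is always that of RPKM + 1.

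In Δsir2 the RPS genes were higher as a group. Of the 56 members 28 were called higher and 0 lower, while of all genes tested 5.2% were called higher and 14.6% lower. The log2 fold change was above 0 in 55 members, with a median of 0.39, against -0.13 over all genes tested. RPL and RPP genes had 35 of 82 called higher and 0 lower.

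The largest change was that of RPS9A, which encodes a protein of the decoding fidelity region, with 155 RPKM (211 reads) in Δsir2 and 55.1 RPKM (66 reads) in WT. Its log2 fold change was 1.48 (95% interval 1.09 to 1.91, chi-square adjusted p = 6.27e-13). RPS23B, whose product reaches into the decoding centre, had 507 RPKM in Δsir2 and 238 RPKM in WT (log2 fold change 1.09). Both low-level copies thus rose more than the median member. RPS3, at the mRNA entry site, had 4423 RPKM in Δsir2 and 2784 RPKM in WT (0.67). RPS10B (0.66) and RPS18A (0.65) were close to it. Among the other genes with 1 copy, RPS2, RPS12, RPS13 and RPS31 were called higher with log2 fold changes of 0.41 to 0.49.

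**Figure D3:**
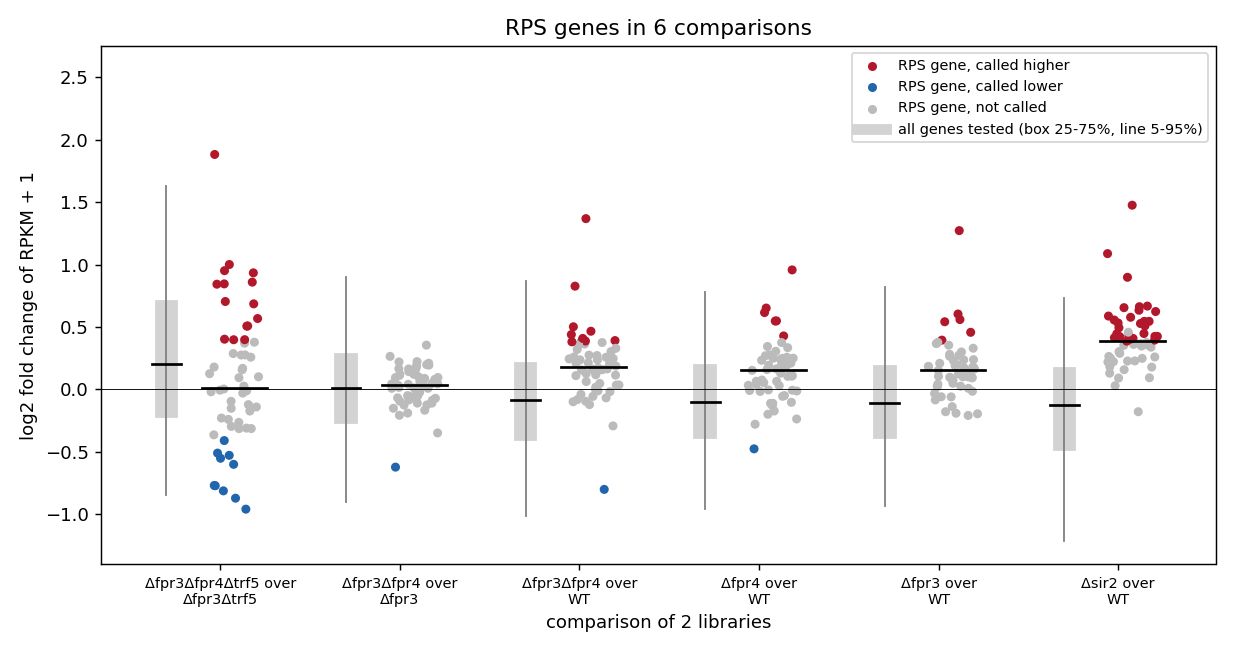
Log2 fold change of RPKM + 1 for the 56 RPS genes in 6 comparisons of 2 libraries (points, red called higher, blue called lower, grey not called, black line median), beside the distribution over all genes tested (box 25 to 75%, line 5 to 95%). The RPS median is 0.39 for Δsir2 over WT and 0.02 for Δfpr3Δfpr4Δtrf5 over Δfpr3Δtrf5, where the points spread from -0.96 to 1.88.

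The single and double FPR mutants were compared with the same WT library, so that their changes share its error. In Δfpr3 6 members were called higher and 0 lower, while of all genes tested 4.19% were called higher and 8.07% lower. In Δfpr4 6 were called higher and 1 lower, where 3.87% and 9.27% of all genes were called. In Δfpr3Δfpr4 10 were called higher and 1 lower, where 5.07% and 9.36% of all genes were called. The median log2 fold change of the members was 0.16 in Δfpr3, 0.16 in Δfpr4 and 0.18 in Δfpr3Δfpr4, against -0.10, -0.10 and -0.09 over all genes tested. With library sizes scaled by trimmed means, 11, 9 and 16 members were called higher in Δfpr3, Δfpr4 and Δfpr3Δfpr4. The shares of all genes above do not apply to these counts, and all genes were not counted under that scaling.

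RPS9A had 144 RPKM in Δfpr3Δfpr4, 108 RPKM in Δfpr4 and 135 RPKM in Δfpr3, against 55.1 RPKM in WT. Its log2 fold changes were 1.37 in Δfpr3Δfpr4, 0.96 in Δfpr4 and 1.27 in Δfpr3, the largest rise of a member in each (chi-square adjusted p = 5.13e-10, 0.000119 and 1.55e-08). The WT library stood below every other library for this gene. RPS23B had 423 RPKM in Δfpr3Δfpr4, 375 RPKM in Δfpr4 and 362 RPKM in Δfpr3, against 238 RPKM in WT (log2 fold changes 0.83, 0.65 and 0.60). RPS13, a gene with 1 copy whose product joins the central domain early, had 1160 RPKM in Δfpr3Δfpr4, 1229 RPKM in Δfpr4 and 1238 RPKM in Δfpr3, against 839 RPKM in WT (0.47, 0.55 and 0.56). RPS21A, a copy of a gene for a protein next to RPS0, had 338, 372 and 350 RPKM in these mutants, against 254 RPKM in WT (0.41, 0.55 and 0.46). These 4 were called higher in each of the 4 comparisons with WT, which all share the WT library. Set against the Δsir2 library in its place, 0 members were called higher and 11 were called lower in Δfpr3, 0 higher and 16 lower in Δfpr4, and 0 higher and 8 lower in Δfpr3Δfpr4. The shares of all genes called against Δsir2 were not counted.

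Other calls belonged to a part of the mutants. RPS4A had 2047 RPKM in Δfpr4 and 2000 RPKM in Δfpr3, against 1521 RPKM in WT (0.43 and 0.39). In Δfpr3Δfpr4 it had 1836 RPKM and was not called. RPS1B, the copy of a gene for a platform protein, was called higher in Δfpr3Δfpr4 with 3470 RPKM, against 2450 RPKM in WT (0.50), as was RPS27B with 2201 RPKM, against 1622 RPKM in WT (0.44). RPS3, RPS9B, RPS18A and RPS31 completed the 10 with log2 fold changes of 0.38 to 0.39, close to the threshold. Whether these members respond differently in the 3 mutants was not tested.

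Downward calls were few. RPS27A, for a zinc-binding protein, had 472 RPKM in Δfpr4 and 657 RPKM in WT (-0.48, chi-square adjusted p = 0.000142), and its call was lost when the median of all genes was set to 0 (-0.38). RPS14B had 196 RPKM (163 reads) in Δfpr3Δfpr4, against 302 RPKM (272 reads) in Δfpr3 and 342 RPKM (308 reads) in WT. The log2 fold change was -0.80 over WT and -0.62 over Δfpr3 (chi-square adjusted p = 2.21e-07 and 0.000289). Rps14 is a platform protein that in yeast binds the RPS14B pre-mRNA and holds back its splicing. RPS14A, its partner, had 2502 RPKM in Δfpr3Δfpr4, 2658 RPKM in Δfpr3 and 2158 RPKM in WT. RPS14B was the lone member called in Δfpr3Δfpr4 over Δfpr3, where 5.09% of all genes were called higher and 4.9% lower. The median of the members was 0.04 there, and that of all genes 0.01.

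The members split between the strains with and without Fpr4 that also lack Fpr3 and Trf5. Loss of Fpr4 cannot be told apart there from the plasmid selection or from slow growth. In Δfpr3Δfpr4Δtrf5 over Δfpr3Δtrf5, 15 members were called higher and 10 lower, while 20.7% of all genes tested were called higher and 7.42% lower. The members had a median log2 fold change of 0.02 and all genes one of 0.20. With the median of all genes set to 0, the split was 9 higher and 18 lower, so that the counts in each direction depend on the scaling.

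RPS27A rose most, with 2034 RPKM (766 reads) in Δfpr3Δfpr4Δtrf5 and 551 RPKM (271 reads) in Δfpr3Δtrf5. Its log2 fold change was 1.88 (95% interval 1.68 to 2.09, chi-square adjusted p = 7.1e-85), and its level in the 5 survey libraries was between 472 and 657 RPKM. RPS28A had 6513 RPKM in Δfpr3Δfpr4Δtrf5 and 3255 RPKM in Δfpr3Δtrf5 (95% interval of the log2 fold change 0.84 to 1.16). RPS21B had 2002 RPKM in Δfpr3Δfpr4Δtrf5 and 1035 RPKM in Δfpr3Δtrf5 (0.95). The next were RPS30B (0.93), RPS27B (0.86) and RPS30A (0.85). These are genes for small proteins, and the rest of the 15 were RPS29A, RPS14A, RPS26B, RPS9A, RPS26A, RPS22A, RPS13, RPS29B and RPS28B. RPS9A, RPS13, RPS22A, RPS26A, RPS28B and RPS29B were no longer called with trimmed-mean scaling.

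RPS22B fell most, with 378 RPKM (208 reads) in Δfpr3Δfpr4Δtrf5 and 736 RPKM (528 reads) in Δfpr3Δtrf5 (-0.96, 95% interval -1.20 to -0.73, chi-square adjusted p = 3.88e-15). In the survey libraries RPS22B had between 601 and 698 RPKM, so that the triple mutant stood below all others. Its intron holds the small nucleolar RNA SNR44 on the same strand, which was not a gene of its own among those counted, so reads of the 2 RNAs cannot be told apart. RPS7A had 782 RPKM in Δfpr3Δfpr4Δtrf5 and 1430 RPKM in Δfpr3Δtrf5 (-0.87). RPS31 had 3606 RPKM in Δfpr3Δfpr4Δtrf5 and 6330 RPKM in Δfpr3Δtrf5 (-0.81). RPS2 had 2753 RPKM in Δfpr3Δfpr4Δtrf5 and 4690 RPKM in Δfpr3Δtrf5 (-0.77), and RPS6A (-0.77) and RPS4A (-0.60) came next. The other falls included RPS23A, RPS6B and RPS4B. ASC1, which encodes the scaffold protein of the subunit head and is outside the name rule, had 1790 RPKM in Δfpr3Δfpr4Δtrf5 and 3230 RPKM in Δfpr3Δtrf5 (-0.85).

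In this comparison the change of a member followed its coding length. Of the 10 members with at most 300 coding bases, 9 were called higher and 0 lower, with a median log2 fold change of 0.85. Of the 29 members with more than 300 and up to 500 coding bases, 5 were called higher and 4 lower, with a median of 0.10. Of the 17 longer ones, 1 was called higher and 6 lower, with a median of -0.31. Across the 56 members Spearman's rho between log2 fold change and coding length was -0.74, as a description over genes of the same 2 libraries. With gene length, introns included, rho was -0.45 across the members and -0.35 across all genes tested. In the same bins of gene length the members had the lower medians, with 0.62 against 0.88 for all genes tested at up to 300 bases (4 members), 0.10 against 0.84 at over 300 and up to 500 bases (9 members), and 0.28 against 0.56 at over 500 and up to 700 bases (7 members). In the comparisons with WT, rho with coding length among members was 0.45 in Δsir2, 0.33 in Δfpr3, 0.23 in Δfpr4 and 0.12 in Δfpr3Δfpr4, and in Δfpr3Δfpr4 over Δfpr3 it was -0.16. The part of length, and of the lower depth of Δfpr3Δfpr4Δtrf5, in the calls was not tested.

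**Figure D4:**
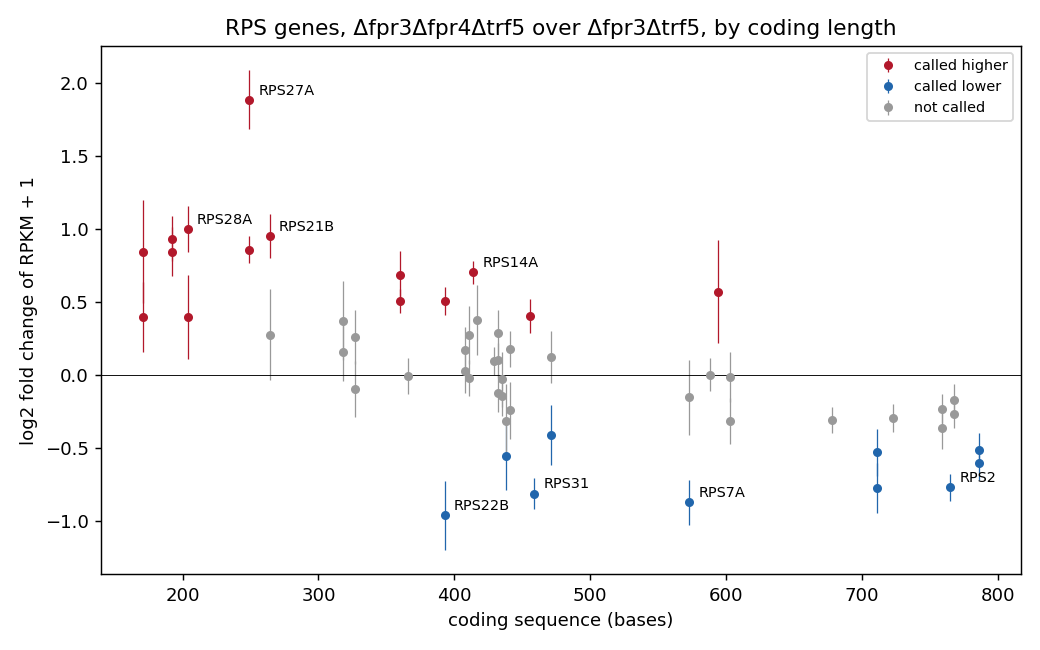
Log2 fold change of RPKM + 1 of the 56 RPS genes in Δfpr3Δfpr4Δtrf5 over Δfpr3Δtrf5 against the length of the coding sequence in bases, with 95% intervals from counting error. Of the 10 genes with at most 300 coding bases 9 are called higher, and of the 17 with more than 500 bases 6 are called lower.

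When the spread between backgrounds was used as the error, no member passed. Over 3 backgrounds (WT, Δfpr3 and Δfpr3Δtrf5) the edgeR quasi-likelihood test of FPR4 loss called 0 of 56 members, where 0.131% of all genes were called. At an unadjusted p under 0.05 there were 2 members, RPS29A (log2 fold change 0.48) and RPS9A (0.49), and DESeq2 called 0. Over 2 backgrounds (WT and Δfpr4) the test of FPR3 loss called 0 of 56, where 0.0219% of all genes were called. At an unadjusted p under 0.05 there were again 2 members, RPS9A (0.86) and RPS23A (0.50), and DESeq2 called 0. Without the Δfpr3Δtrf5 background RPS9A passed for FPR3 loss (log2 fold change 0.87, edgeR adjusted p = 0.0232). In that fit 31 of the 4457 genes tested were called, with 1 residual degree of freedom.

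RPS28B set the Δtrf5 strains apart from the survey strains more than any other member. It had 1585 RPKM (203 reads) in Δfpr3Δfpr4Δtrf5 and 1203 RPKM (201 reads) in Δfpr3Δtrf5. In the survey it had 233 RPKM in Δfpr3Δfpr4, 260.0 in Δfpr4, 269 in Δfpr3, 339 in Δsir2 and 247 in WT, from 48 to 86 reads. Both Δtrf5 libraries were thus above all 5 survey libraries. The ratio was 4.47 for Δfpr3Δtrf5 over Δfpr3 (95% interval 3.33 to 6.07) and 6.8 for Δfpr3Δfpr4Δtrf5 over Δfpr3Δfpr4 (4.94 to 9.52). For RPS28A the same ratios were 1.29 and 2.37. Of the 56 members, 20 were above all survey libraries in both Δtrf5 libraries and 0 were below, against 14.8% and 8.65% of all genes. Apart from RPS28B, the lower of the 2 Δtrf5 values was at most 1.36 times the highest survey value, for RPS14A and RPS26A.

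The balance of A and B copies was read from the share of A among the reads of a pair. In WT, B had more reads in 14 pairs and A in 10. Among the highest A shares in WT were those of RPS28 (90.8%, 95% Wilson interval 88.2 to 92.9), RPS14 (84.7%), RPS7 (76.3%) and RPS26 (75.04%). The 5 lowest were those of RPS9 (4.87%, 3.84 to 6.15), RPS21 (17.1%), RPS27 (23.3%), RPS18 (29.1%) and RPS29 (31.0%). The copy with more reads was mostly the same, as 19 of 24 pairs stayed on the same side of 50% in all 7 libraries. Read shares also depend on gene length. By RPKM 2 pairs changed side of 50% in WT, and the A share of RPS22 in WT was 84.1% by RPKM and 70.4% by reads. In WT the intervals of RPS24, RPS1, RPS25 and RPS6 held 50%.

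Within that order the shares moved, about as often as in all A and B pairs. A chi-square test over the 7 libraries found unequal A shares in 20 of 24 RPS pairs, where 88.5% of all 61 A and B pairs were called. The 61 pairs hold the 24 RPS pairs and 35 other pairs of ribosomal protein genes. They are therefore no independent reference for the RPS pairs, here or below. RPS10, RPS19, RPS29 and RPS6 did not pass. The range between the lowest and the highest share had a median of 7.1 percentage points and was widest for RPS22, at 19.3 points, and RPS28, at 19.2 points.

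**Figure D5:**
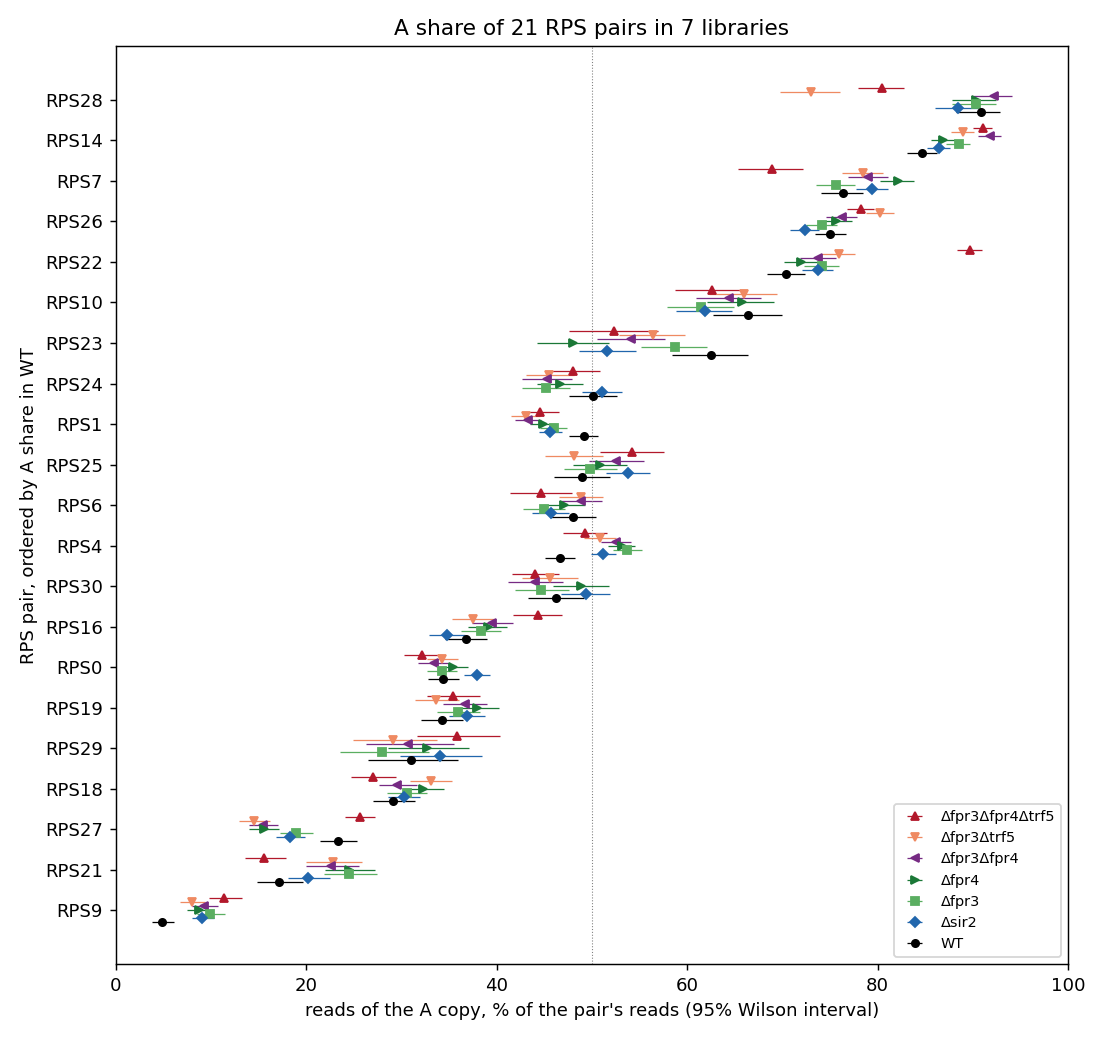
Share of the A copy among the reads of each of 21 of the 24 RPS pairs, in percent with 95% Wilson intervals, in 7 libraries (rows ordered by the share in WT). RPS22 reaches 89.7% in Δfpr3Δfpr4Δtrf5, RPS28 drops to 73.0% and 80.4% in the Δtrf5 libraries, and RPS9 is lowest in WT at 4.87%.

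Of the 24 pairs, 8 shifted in Δsir2 over WT (Fisher's exact test, two-sided, adjusted over all 61 pairs), where 18% of all pairs were called. In Δfpr3 9 shifted, where 31.1% of all pairs did, in Δfpr4 8, where 27.9% did, and in Δfpr3Δfpr4 8, where 29.5% did. The A share of RPS9 was 9.25% in Δfpr3Δfpr4, 8.74% in Δfpr4, 9.94% in Δfpr3 and 9.07% in Δsir2, against 4.87% in WT. It was called in each of these comparisons, as were shifts of RPS4, RPS1 and RPS27. These comparisons all share the WT library, so that their shifts share its error. The A share in WT was the lowest of the 7 libraries for RPS9 and RPS4 and the highest for RPS1, but neither for RPS27. RPS4A took 52.5% of its pair in Δfpr3Δfpr4, 53.1% in Δfpr4, 53.7% in Δfpr3 and 51.2% in Δsir2, against 46.6% in WT. RPS27A took 15.5% in Δfpr3Δfpr4, 15.5% in Δfpr4, 18.9% in Δfpr3 and 18.3% in Δsir2, against 23.3% in WT.

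The largest shift over WT was that of RPS23, whose A share was 48.0% in Δfpr4 and 62.5% in WT (difference -14.5 points, 95% interval -20.0 to -8.92, Fisher's exact adjusted p = 7.8e-06). RPS23A had 319 reads in Δfpr4 and 348 in WT, and RPS23B had 346 in Δfpr4 and 209 in WT. The change in read numbers was thus mostly in the B copy, and both copies encode the same protein. RPS23 also shifted in Δsir2 (51.6%) and Δfpr3Δfpr4 (54.1%). In Δfpr3 its share was 58.7% and did not pass. RPS21A took 22.7% in Δfpr3Δfpr4, 24.5% in Δfpr4 and 24.5% in Δfpr3, against 17.1% in WT. RPS14A took 91.8% in Δfpr3Δfpr4 and 88.5% in Δfpr3, against 84.7% in WT. RPS1A took 43.3% in Δfpr3Δfpr4, 44.9% in Δfpr4, 46.0% in Δfpr3 and 45.6% in Δsir2, against 49.1% in WT. Further shifts over WT, of RPS7 in Δfpr4, of RPS22 in Δfpr3, of RPS24 in Δfpr3 and Δfpr3Δfpr4, and of RPS0 in Δsir2, were between 3.54 and 5.77 points in size.

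In Δfpr3Δfpr4 over Δfpr3 2 pairs shifted, where 14.8% of all pairs did. The A share of RPS14 was 91.8% in Δfpr3Δfpr4 and 88.5% in Δfpr3, and that of RPS27 was 15.5% in Δfpr3Δfpr4 and 18.9% in Δfpr3. In Δfpr3Δfpr4Δtrf5 over Δfpr3Δtrf5 13 pairs shifted, 7 toward A and 6 toward B, where 52.5% of all pairs did.

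RPS22 shifted most, with 89.7% in Δfpr3Δfpr4Δtrf5 (1812 reads of A, 208 of B) and 75.9% in Δfpr3Δtrf5 (1664 of A, 528 of B). The difference was 13.8 points (95% interval 11.55 to 16.01, Fisher's exact adjusted p = 4.11e-31). Both copies of this gene, for a protein of the body, have 393 coding bases. RPS22A spans 393 bases without an intron, and RPS22B spans 876 bases with an intron of 483 bases. That intron holds SNR44, whose reads cannot be told apart from those of RPS22B. RPS27A took 25.6% of its pair in Δfpr3Δfpr4Δtrf5 and 14.5% in Δfpr3Δtrf5, so the highest and the lowest share of RPS27A were in the 2 Δtrf5 libraries. RPS7A took 68.9% in Δfpr3Δfpr4Δtrf5 and 78.5% in Δfpr3Δtrf5. RPS28A took 80.4% in Δfpr3Δfpr4Δtrf5 and 73.0% in Δfpr3Δtrf5, both below the survey range of 88.5% to 92.2%. RPS21A took 15.6% in Δfpr3Δfpr4Δtrf5 and 22.8% in Δfpr3Δtrf5. Further shifts, of RPS16, RPS25, RPS18, RPS9 and RPS14, were between 2.02 and 6.84 points in size. Coding lengths of A and B differ by at most 6 bases in any of these pairs, but reads were counted over whole genes, introns included. Gene lengths were 600 and 799 bases for RPS27A and RPS27B, and 586 and 724 bases for RPS21A and RPS21B. The part of gene length in these shifts was not tested.

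Other genes of the pathway were counted from lists written with earlier results of these data known. Of all genes tested, 20.7% were called higher and 7.42% lower in Δfpr3Δfpr4Δtrf5 over Δfpr3Δtrf5, and 5.09% and 4.9% in Δfpr3Δfpr4 over Δfpr3. Over WT the shares were 5.07% and 9.36% in Δfpr3Δfpr4, 3.87% and 9.27% in Δfpr4, 4.19% and 8.07% in Δfpr3, and 5.2% and 14.6% in Δsir2. The counts of each list are to be set against these shares. Of 14 regulators of ribosomal protein genes, 1 was called higher and 4 lower in Δsir2. RAP1 had 92.7 RPKM in Δsir2 and 67.4 RPKM in WT (0.45), while STB3 (-0.90), SFP1 (-0.80) and TOR1 (-0.46) were lower. Over WT, 0 were higher and 2 lower in Δfpr3Δfpr4 (STB3 -1.15, DOT6 -0.75), 2 lower in Δfpr4 (TOR1 -0.42, SCH9 -0.39) and 1 lower in Δfpr3 (ABF1 -0.75). In Δfpr3Δfpr4 over Δfpr3 1 of 13 tested was lower (DOT6 -0.64). In Δfpr3Δfpr4Δtrf5 over Δfpr3Δtrf5 3 were higher (TOD6 1.19, HMO1 0.73, SCH9 0.57) and 0 lower.

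Of 23 genes listed as assembly factors of the small subunit, 7 were called higher and 1 lower in Δfpr3Δfpr4Δtrf5 over Δfpr3Δtrf5. Of all genes, 20.7% and 7.42% were called there. They were led by SLX9 (2.12), YAR1 (1.21) and RIO1 (1.16). Over WT, 0 were higher and 4 lower in Δfpr3Δfpr4 (NAP1 -0.80, TRM112 -0.66 and NOB1 -0.61 lowest), 0 and 2 in Δfpr4 (NOB1 -1.11, KRR1 -0.73), 1 and 0 in Δfpr3 (RRP7 0.63) and 1 and 0 in Δsir2 (SYO1 0.39). SYO1 was on the list although its product is a chaperone of large subunit proteins. In Δfpr3Δfpr4 over Δfpr3 0 were higher and 4 lower (RIO1 -1.16, RRP7 -0.62 and NAP1 -0.52 lowest). RPL and RPP genes, with 82 tested in each comparison, had 28 higher and 5 lower in Δfpr3Δfpr4Δtrf5 over Δfpr3Δtrf5 and 0 higher and 5 lower in Δfpr3Δfpr4 over Δfpr3. Over WT they had 12 higher and 3 lower in Δfpr3Δfpr4, 9 and 0 in Δfpr4, and 16 and 0 in Δfpr3.

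Stress genes under Msn2 and Msn4, which are raised when growth slows, were called in either direction. Of 18 tested, 7 were higher and 0 lower in Δfpr3Δfpr4Δtrf5 over Δfpr3Δtrf5, where 20.7% and 7.42% of all genes were called. HSP12 had 69 reads in Δfpr3Δfpr4Δtrf5 and 0 in Δfpr3Δtrf5. In Δfpr3Δfpr4 over Δfpr3 7 of 19 were higher and 0 lower, where 5.09% and 4.9% of all genes were called. Over WT, 4 were higher and 1 lower of 18 in Δfpr3Δfpr4, and 5 and 0 of 19 in Δfpr4. In Δfpr3 1 and 2 of 18 were called, and in Δsir2 0 and 7 of 17. Their part in the RPS changes was not tested.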

How the data were processed

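RNA depleted of rRNA was sequenced as paired ends from 7 strains, 1 library each. The authors aligned reads to sacCer3 with BWA, applied a mapping quality threshold, collapsed duplicate fragments and counted proper pairs of the gene's strand that fell inside it. For each of 5110 genes they deposited a whole-number read count, and an RPKM whose column is named TPM. The deposited RPKM equalled the count scaled to gene length and library total within 0.0979% for genes over 20 reads. Reads that match both copies of a pair pass such a threshold only if the aligner prefers 1, so copies with few unique windows have uncertain counts.

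Groups followed the genotype labels. The members and the gene lists were chosen with earlier results of these data known. Genes were compared between 2 libraries by chi-square on reads with 1.3-fold of RPKM + 1, more than 5 reads and Benjamini-Hochberg adjustment at 0.05. A shares were compared by Fisher's exact test in pairs with at least 20 reads per library. Intervals of single counts and shares are 95% intervals and, like the limit of 3 reads (0.000241% to 0.000478% of a library) that a count of 0 allows, cover counting error only. FPR4 and FPR3 loss over backgrounds was fitted with edgeR 4.0.16 (quasi-likelihood, trimmed-mean scaling, background as a term, 2 residual degrees of freedom) and, as an alternative, DESeq2 1.42.0. Python 3.11.15 with SciPy 1.17.1 was used otherwise. The chi-square call, Fisher's exact test of A shares and the edgeR test of FPR4 loss were tried on simulated counts. Some members are counted but not reported here by name. Named were the other genes with 1 copy, up to 6 called members in each direction and pairs in each comparison, the 5 highest and lowest in level and in A share, and up to 3 called genes of each other list. RPS22A, RPS28B, RPS14A and other remaining names complete counts or were picked with their values known. Alternatives varied the pseudocount, the filter, the fold, the test and the scaling. Gene models came from RefSeq for the same build, with 5034 genes matched by systematic name and 5029 with the same start and end, all 56 members among them.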

Additional observations from a re-analysis of the deposited data

Results flagged for a closer look

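The change with FPR4 loss was compared between pairs of libraries that share none, Δfpr3Δfpr4Δtrf5 over Δfpr3Δtrf5 and Δfpr4 over WT. The difference of the log2 fold changes was tested against counting error alone and adjusted over 4286 genes, of which 24.7% passed. Of the 56 members 29 passed, 10 with the larger and 19 with the smaller log2 fold change without Fpr3 and Trf5. Such a test passes smaller differences in genes with more reads, and the median gene had 35 to 55 reads in these libraries. The share of members that passed is therefore not comparable with that of all genes. The medians over all genes tested, 0.20 without Fpr3 and Trf5 and -0.10 in the WT background, were not set equal, so that the split by direction depends on the scaling. RPS27A had a log2 fold change of 1.88 without Fpr3 and Trf5 and -0.48 in the WT background, a difference of 2.36. RPS4A had -0.60 without Fpr3 and Trf5 and 0.43 in the WT background, a difference of -1.03. These were the 2 members called in opposite directions (adjusted p of the difference 1.77e-55 and 3.3e-41, normal approximation on reads, which measures counting error and not the spread between cultures).

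The shift of the A share was compared in the same way and adjusted over 59 pairs, of which 49.2% passed. Of the 24 RPS pairs 11 passed, and 3 of them were called in opposite directions. RPS27 shifted by 11.1 points without Fpr3 and Trf5 and by -7.80 points in the WT background, a difference of 18.9 points. RPS21 shifted by -7.18 points without Fpr3 and Trf5 and by 7.38 points in the WT background, a difference of -14.6 points. RPS7 shifted by -9.60 points without Fpr3 and Trf5 and by 5.77 points in the WT background, a difference of -15.4 points. In Δfpr3Δfpr4 over Δfpr3, where FPR4 is lost without Fpr3 but with Trf5, RPS27A had a log2 fold change of -0.08 and RPS4A one of -0.12, and neither was called. There the A share shifted by -3.44 points for RPS27, which passed, by -1.86 points for RPS21 and by 3.42 points for RPS7, which did not pass. Loss of Trf5, the strain cross and the plasmid selection cannot be told apart in these differences.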

How the results depend on the processing

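Total counts of called members and shifted pairs, without regard to direction, stayed within 1.5 times under 83 of 100 alternatives. Apart from the edgeR and DESeq2 fits, the shares of all genes or pairs called were not counted under the alternatives. Several of the 100 could hardly move a count, as every member had at least 48 reads. These were the filters on reads, the pseudocounts and the exact binomial test, so that the 83 is no measure of robustness. Among the 83, the 15 higher and 10 lower members of Δfpr3Δfpr4Δtrf5 over Δfpr3Δtrf5 became 9 and 18 with the median of all genes set to 0 and 9 and 19 with trimmed-mean library sizes, and the 10 higher and 1 lower of Δfpr3Δfpr4 over WT became 0 and 8 with Δsir2 as the reference. At 1.5-fold, called members numbered 15 in Δfpr3Δfpr4Δtrf5 over Δfpr3Δtrf5, and over WT 3 in Δfpr3Δfpr4, 3 in Δfpr4, 2 in Δfpr3 and 9 in Δsir2. With the median of all genes set to 0, 17 were called in Δfpr3Δfpr4 and 12 in Δfpr3, and with trimmed-mean library sizes 17 and 11. With a shift of at least 5 points required, shifted pairs numbered 0 in Δfpr3Δfpr4 over Δfpr3, 3 in Δfpr3 and 4 in Δsir2 over WT. Without the Δfpr3Δtrf5 background, members called for FPR3 loss numbered 1, and leaving out each background in turn gave 0 for FPR4 loss.

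The Δsir2 library in place of WT was chosen after seeing the data and changes the question asked. Called members then numbered 16 in Δfpr4 and 11 in Δfpr3, and shifted pairs 5 in each. Of the named log2 fold changes called over WT, 14 changed sign: in Δfpr3Δfpr4 RPS1B -0.05, RPS3 -0.28, RPS9A -0.11, RPS9B -0.14, RPS18A -0.27, RPS21A -0.02, RPS23B -0.26 and RPS31 -0.04, in Δfpr4 RPS4A -0.20, RPS9A -0.52 and RPS23B -0.44, and in Δfpr3 RPS4A -0.23, RPS9A -0.20 and RPS23B -0.48. Under the other alternatives 0 of the 71 called changes of named members reversed, but none of these settings could reverse a call. They change the pseudocount, filter, test or threshold, or rescale by less than the 1.3-fold that a call needs. At 1.5-fold 40 of the 71 were no longer called, with the median of all genes set to 0 7, and with trimmed-mean library sizes 6. No pairing by replicate number could be made with 1 library per genotype, and the edgeR fits matched libraries by background. Counting error is smallest for members with many reads, and RPS9A (66 reads in WT) and RPS28B (48 reads in Δfpr3Δfpr4) rest on the fewest.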
